A study of Homo sapiens with 6 samples.

Results

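The D, E, A and B type cyclins of the cell cycle were examined in SH-SY5Y cells, a human neuroblastoma line of sympathetic origin. The 8 genes were taken by symbol: CCND1, CCND2 and CCND3 (D type), CCNE1 and CCNE2 (E type), CCNA2 (A type), and CCNB1 and CCNB2 (B type). All 8 were present among the 28752 genes of the deposited table, and all 8 passed the filter on low counts that left 16458 genes to test. RNA sequencing had been run 72 h after transfection with OE-NC (3 libraries) or OE-circSHPRH (3 libraries). The labels spell out neither OE nor NC. OE-NC is read here as the control arm. The SHPRH gene gives rise to the circular RNA circ-SHPRH, and the series title connects the peptide it encodes with p21 and the cyclin-dependent kinases (CDKs). Nothing in the labels says that the 3 libraries of a group were separate cultures. The p-values therefore measure only the spread between libraries, which may be technical.

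Cyclins are the regulatory subunits that switch on the CDKs, and most are made and destroyed once in each cell cycle. D-type cyclins answer to growth signals and pair with CDK4 and CDK6, which phosphorylate the retinoblastoma protein and free the E2F factors. E-type cyclins then pair with CDK2 at the entry into S phase, cyclin A2 works with CDK2 and CDK1 through S phase and G2, and B-type cyclins with CDK1 drive mitosis. p21, the product of CDKN1A, binds cyclin-CDK complexes and inhibits them, so it can act on cyclins without any change in their mRNAs. High expression of cyclin D1 is a known feature of neuroblastoma.

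Total counts per library ran from 15645261 to 17591718, and replicate pairs differed by more than sampling noise (mean chi-square per degree of freedom 2.19 to 7.89). SHPRH, the check of the labels, had 394 to 472 counts in the OE-NC libraries and 1071 to 1395 in those of OE-circSHPRH. All 9 sympathetic neuroblastoma markers on the list used were detected in every library, from TH at 2.63 to 3.92 FPKM (fragments per kilobase of gene, scaled to library size) to PHOX2A at 428 to 468 FPKM. Their sum was 1496 to 1516 FPKM in OE-NC and 1545 to 1575 FPKM in OE-circSHPRH, without overlap. The 4 fibroblast markers summed to 51.4 to 54.7 FPKM in OE-NC and to 55.6 to 67.4 FPKM in OE-circSHPRH, mostly from LUM (41.1 to 56.0 FPKM over the 6 libraries). The 2 epithelial markers in the table summed to at most 1.27 FPKM and the 2 haematopoietic markers to at most 6.77 FPKM. Mitochondrially encoded genes took 10.2% to 10.3% of the counts in replicates 1 and 2 of OE-NC and replicate 3 of OE-circSHPRH, and 11.4% to 12.1% in the other libraries. The part of the sympathetic and fibroblast markers and of the mitochondrial share in the cyclin values was not tested, apart from the mitochondrial values given below.

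Cyclin D1 mRNA was by far the most abundant of the 8. On the FPKM scale, which divides by gene length and allows levels of different genes to be compared, CCND1 averaged 64.7 ± 1.60 FPKM (SD, n = 3) in OE-NC. It ranked 481 of all 28752 genes, within the top 1.67%. The other 7 cyclins followed in the order CCNB1 (11.4 ± 0.504 FPKM), CCNB2 (11.0 ± 0.678), CCNA2 (9.56 ± 0.352), CCND3 (3.57 ± 0.127), CCNE1 (3.30 ± 0.451), CCNE2 (0.857 ± 0.0728) and CCND2 (0.0949 ± 0.0136), each with SD and n = 3. The mean of CCND1 was 5.67 times that of CCNB1. The ranges of the 3 OE-NC libraries overlapped between CCNB1 and CCNB2 and between CCND3 and CCNE1, so the order within each of these pairs is not resolved. Every other pair of neighbours in the order was separate. The gene length used joins all annotated exons and is not that of the transcript expressed, so the order also depends on the annotation. That length is 5802 bases for CCND3, with 18 annotated transcript starts, and 2798 bases for CCNA2, with 2. Without division by length their OE-NC means were 20.9 and 27.0 CPM (counts scaled to a common library total).

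**Figure D1:**
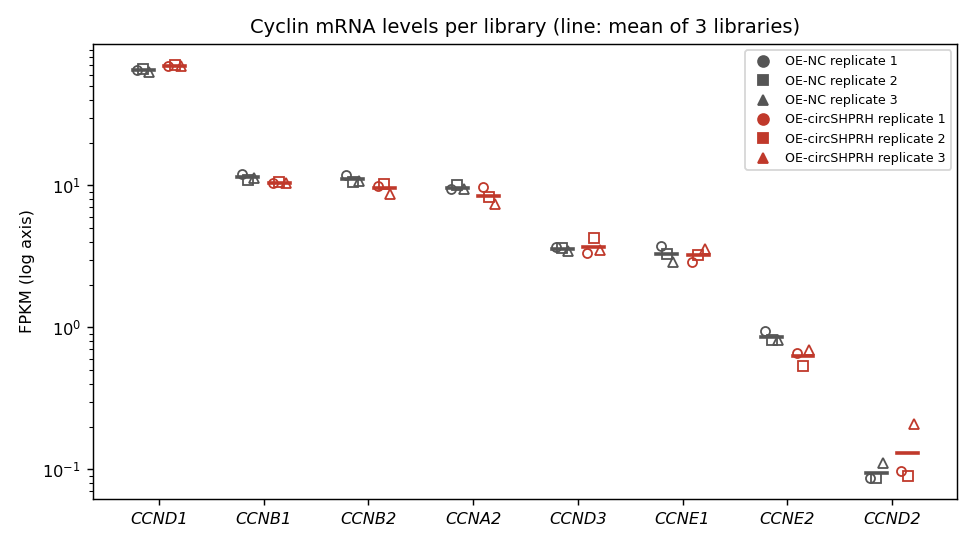
FPKM of each cyclin (log axis) in every library, in the order of the OE-NC means; symbols are replicates, grey for OE-NC and red for OE-circSHPRH, and short lines are means of 3 libraries. CCND1 lies near 65 to 70 FPKM, the A and B types near 10, CCND3 and CCNE1 between 2.86 and 4.22, CCNE2 under 1, and CCND2 near 0.1.

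D-type mRNA was almost entirely cyclin D1. CCND1 made up 94.5% to 94.7% of the summed D-type FPKM in the OE-NC libraries and 94.2% to 95.2% in the OE-circSHPRH libraries. Of the summed FPKM of all 8 cyclins it made up 60.8%, 62.9% and 62.1% in OE-NC replicates 1 to 3 and 65.2%, 65.6% and 66.8% in OE-circSHPRH. The sum itself was 104 ± 2.32 FPKM in OE-NC and 106 ± 2.09 FPKM in OE-circSHPRH (SD, n = 3 each), with overlapping ranges.

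No cyclin mRNA passed the test between OE-circSHPRH and OE-NC. With edgeR's quasi-likelihood test, 0 of 8 reached an adjusted p under 0.05 (Benjamini-Hochberg over 16458 genes), where 0.188% of all genes tested did. Limma-voom and limma on FPKM also called 0 of 8, and so did DESeq2, which gave an adjusted p to CCND1 alone of the 8. At an unadjusted p under 0.05, 3 of 8 passed, against 10.3% of all genes. CCND1 was the member higher (5.33% of all genes) and CCNB2 and CCNE2 were the members lower (5.02%). In 4 of 8 the libraries of the groups did not overlap, against 15.6% of all genes. CCND1 lay higher (7.99% of all genes) and CCNB1, CCNB2 and CCNE2 lower (7.57%). The log2 fold changes of the 3 D-type genes were positive and those of the 5 E, A and B type genes negative. Their median was -0.08, beside 0.0018 over all genes tested, of which 49.2% were negative. In these bulk RNA samples a smaller share of cells in a cell-cycle phase and less mRNA per cell cannot be told apart.

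**Figure D2:**
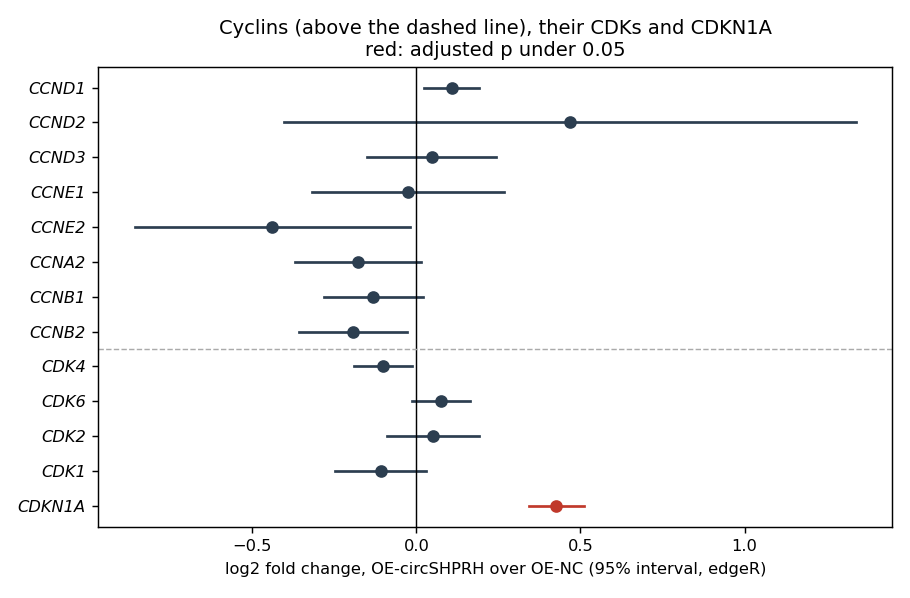
Log2 fold change of OE-circSHPRH over OE-NC with its 95% interval (edgeR) for the 8 cyclins, the 4 CDKs they pair with and CDKN1A. The intervals of CCND1, CCNB2, CCNE2, CDK4 and CDKN1A exclude 0 before adjustment over all genes, that of CCND2 is the widest of the 8, and CDKN1A alone passed the adjusted test.

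CCND1 (ENSG00000110092, chromosome 11, 69641087 to 69654474, plus strand, GRCh38) encodes the D-type cyclin that carries growth signals to CDK4 and CDK6. Its raw counts were 4967, 5687 and 5396 in OE-NC replicates 1 to 3 and 5717, 5347 and 5637 in OE-circSHPRH. Scaled to library size these were 314, 324 and 308 CPM (counts scaled to a common library total) in OE-NC and 336, 345 and 338 CPM in OE-circSHPRH. All 3 OE-circSHPRH libraries were above all 3 OE-NC libraries, and the difference was small. The log2 fold change was 0.11 (SE 0.040), or 7.70% with a 95% interval of 1.65% to 14.1%, and the adjusted p was 0.333. In the authors' deposited table CCND1 had a log2 fold change of 0.11 and an adjusted p of 0.256. The adjusted p of the other 7 cyclins there is 1, which may stand for a missing value. DESeq2 as run here gave these 7 no adjusted p. With the mitochondrial share of each library as a covariate, CCND1 passed (log2 fold change 0.12, edgeR adjusted p = 0.0357), in a fit that called 212 genes higher and 125 lower. The last exons overlap those of LTO1 on the opposite strand over 497 bases, 10.3% of the CCND1 length. LTO1, at 505 to 640 counts, had 0.08 (SE 0.075) on the same scale. Whether the counting used strand is not given in the sources used here, so reads in such shared stretches cannot be assigned.

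CCND3 (ENSG00000112576, chromosome 6, 41934933 to 42050357, minus strand), a D-type cyclin with a known role in blood cell development, stood at 21.5, 21.2 and 20.1 CPM in OE-NC and 19.6, 24.8 and 20.6 CPM in OE-circSHPRH. The groups overlapped, with replicate 2 of OE-circSHPRH the highest of the 6 libraries. Its fold change was 0.05 on the log2 scale (95% interval -0.15 to 0.24, adjusted p = 0.914), which covers changes from -9.94% to 18.4%. Without OE-circSHPRH replicate 2 it was -0.06. CCND2 (ENSG00000118971, chromosome 12, 4273772 to 4305350, plus strand), the D-type cyclin known as a MYC target, was close to undetected. It had 10, 11 and 14 counts in OE-NC and 12, 10 and 25 in OE-circSHPRH. The 25 counts of OE-circSHPRH replicate 3 stood apart from the other 5 libraries. The log2 fold change of 0.47 had a 95% interval of -0.41 to 1.34 (adjusted p = 0.765), and without that library it was -0.02. A change in CCND2 was not detectable at this depth.

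The E-type genes were low, and their values between the groups were not alike: CCNE1 overlapped fully and CCNE2 did not overlap. CCNE1 (ENSG00000105173, chromosome 19, 29811898 to 29824308, plus strand) encodes cyclin E1, an activator of CDK2 at the start of S phase. It stood at 9.68, 8.43 and 7.37 CPM in OE-NC and 7.41, 8.39 and 9.18 CPM in OE-circSHPRH, so that the groups covered nearly the same range. Its log2 fold change was -0.03 (95% interval -0.32 to 0.27, adjusted p = 0.976). CCNE2 (ENSG00000175305, chromosome 8, 94879770 to 94896678, minus strand) encodes cyclin E2, which also activates CDK2. It had 66, 64 and 63 counts in OE-NC and 50, 37 and 51 in OE-circSHPRH. All 3 OE-circSHPRH libraries lay below the OE-NC libraries, at 2.39 to 3.06 CPM against 3.60 to 4.18 CPM. The log2 fold change was -0.44 (SE 0.20), or -26.2% with a 95% interval of -44.9% to -1.28%, and the adjusted p was 0.456. The fold changes of CCNE1 and CCNE2 were not tested against each other, and their intervals overlapped.

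CCNE2 shares more of its sequence with a neighbour than any other of the 8. Exons of INTS8, which encodes a subunit of the Integrator complex and lies on the opposite strand, cover 1629 bases or 37.0% of the CCNE2 length. INTS8 had 755 to 894 counts per library, many times the count of CCNE2, and a log2 fold change of 0.10 (SE 0.068). The level of CCNE2 is therefore uncertain, while CCNE1 overlaps no other gene of the table.

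The bases before the RefSeq start of CCNE1 (GRCh38.p14, plus strand, chr19:29811741-29811990) are shown because they are so rich in GC boxes; capitals mark GGGCGG on either strand.
CCNE1: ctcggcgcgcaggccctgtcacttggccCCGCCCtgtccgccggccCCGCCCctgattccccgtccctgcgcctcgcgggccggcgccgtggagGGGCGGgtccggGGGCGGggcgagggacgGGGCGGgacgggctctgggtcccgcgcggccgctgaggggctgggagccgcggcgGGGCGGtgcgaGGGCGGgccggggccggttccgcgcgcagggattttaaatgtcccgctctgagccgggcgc
They hold 7 such boxes and 81.2% G and C, and 42.6% of all 35116 RefSeq windows of the same length hold at least 1. The CCAAT box does not occur in these 250 bases on either strand. The E2F letters searched were TTCCCGC and TTGGCGC, on both strands. Of all windows, 7.81% hold at least 1 of them, and this window holds none. Other E2F letters and the bases after the start were not searched, so this does not show that CCNE1 lacks E2F sites.

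The A and B type cyclins had lower means in OE-circSHPRH (fold changes of 0.874 to 0.913) without passing the test. CCNA2 (ENSG00000145386, chromosome 4, 121816444 to 121823933, minus strand) encodes cyclin A2, the partner of CDK2 and CDK1 in S phase and G2. It stood at 26.5, 28.2 and 26.4 CPM in OE-NC and 27.4, 23.4 and 20.8 CPM in OE-circSHPRH. Replicate 1 of OE-circSHPRH lay within the OE-NC range and the other OE-circSHPRH libraries below it. On the log2 scale the fold change was -0.18 (SE 0.091), or -11.6% with a 95% interval of -22.6% to 0.891%, and the adjusted p was 0.524. The log2 fold change was -0.29 without OE-circSHPRH replicate 1 and -0.09 without OE-circSHPRH replicate 3. CCNA2 shares 254 exon bases (9.08% of its length) with EXOSC9 on the opposite strand, which had 473 to 567 counts and a log2 fold change of 0.07 (SE 0.083).

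CCNB1 (ENSG00000134057, chromosome 5, 69167010 to 69178245, plus strand) encodes cyclin B1, whose complex with CDK1 triggers entry into mitosis. It stood at 30.9, 28.4 and 29.2 CPM in OE-NC and 26.6, 27.4 and 26.7 CPM in OE-circSHPRH. The groups did not overlap, and the OE-circSHPRH libraries differed by less than 1 CPM. Its fold change was -0.13 on the log2 scale (95% interval -0.28 to 0.02, adjusted p = 0.562). CCNB2 (ENSG00000157456, chromosome 15, 59105078 to 59125045, plus strand) encodes cyclin B2, a B-type cyclin found mainly at the Golgi apparatus. It stood at 33.2, 29.6 and 30.4 CPM in OE-NC and 28.0, 28.7 and 24.8 CPM in OE-circSHPRH, again without overlap. The log2 fold change was -0.19 (SE 0.079), or -12.6% with a 95% interval of -22.0% to -2.0%, and the adjusted p was 0.380. Neither B-type gene shares exon bases with another gene of the table. Their FPKM stood in a ratio of 1.02 to 1.05 in OE-NC and of 1.04 to 1.18 in OE-circSHPRH.

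**Figure D3:**
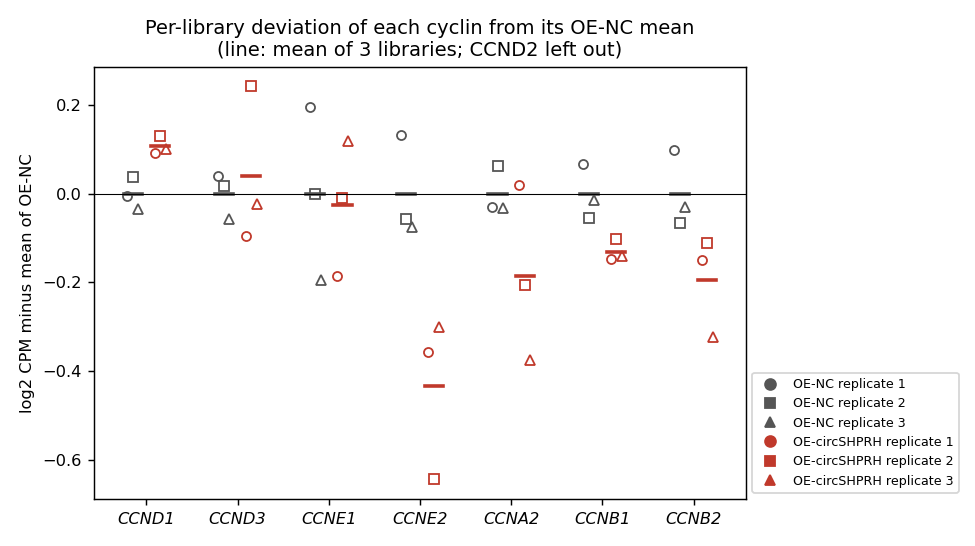
Log2 CPM of each cyclin in every library minus its mean over the 3 OE-NC libraries; symbols are replicates and lines are group means. The CCND1 libraries of OE-circSHPRH lie above 0 and those of CCNE2, CCNB1 and CCNB2 below it, with CCNA2 spread from about 0 to below -0.3; CCND2 is left out for its low counts.

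The promoters of the A and B type genes are shown because genes of this phase are known to share CCAAT boxes, bound by the factor NF-Y, and a cell cycle homology region (CHR), bound by the MuvB complex. The 250 bases before each RefSeq start (GRCh38.p14) follow, read along the strand of the gene; capitals mark CCAAT boxes on either strand and the CHR letters. The CHR was searched on both strands as TTTGAA and as TTCGAA, and other forms of it were not searched. They lie at chr4:121823884-121824133 (CCNA2, minus strand), chr5:69166900-69167149 (CCNB1, plus strand) and chr15:59104896-59105145 (CCNB2, plus strand).
CCNA2: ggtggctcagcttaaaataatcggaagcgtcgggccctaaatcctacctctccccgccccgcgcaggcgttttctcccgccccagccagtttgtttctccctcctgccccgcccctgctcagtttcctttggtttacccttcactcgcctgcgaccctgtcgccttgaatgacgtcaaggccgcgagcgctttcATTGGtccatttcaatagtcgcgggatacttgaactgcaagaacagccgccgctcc
CCNB1: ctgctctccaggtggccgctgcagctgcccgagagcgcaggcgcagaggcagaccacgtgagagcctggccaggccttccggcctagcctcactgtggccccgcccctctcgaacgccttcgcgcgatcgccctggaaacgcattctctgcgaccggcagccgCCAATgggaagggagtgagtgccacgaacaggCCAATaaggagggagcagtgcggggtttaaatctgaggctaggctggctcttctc
CCNB2: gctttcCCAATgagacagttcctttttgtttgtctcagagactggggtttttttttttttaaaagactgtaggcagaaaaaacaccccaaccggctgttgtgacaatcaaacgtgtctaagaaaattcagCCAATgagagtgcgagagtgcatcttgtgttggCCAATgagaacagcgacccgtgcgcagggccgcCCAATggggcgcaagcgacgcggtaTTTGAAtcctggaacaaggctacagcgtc
CCNB2 holds 4 CCAAT boxes, 244, 120, 87 and 54 bases before the start, and the CHR letters TTTGAA 29 bases before it. CCNB1 holds 2 CCAAT boxes, 87 and 55 bases before the start, and CCNA2 holds 1, 56 bases before it on the other strand. The box nearest to the start thus lies 54 to 56 bases before it in all 3 genes. Of all 35116 windows of this length, 32.0% hold a CCAAT box, 9.53% hold at least 2 and 14.3% hold the CHR letters. The CHR letters searched are not in the CCNA2 and CCNB1 windows, which does not show that these genes lack a CHR. In CCNB2 the CCAAT box nearest to the start overlaps a GC box (CCGCCC, 58 bases before the start). RefSeq windows were matched for 5 of the 8 genes. CCND3 has 3 start sites, whose windows hold 0, 1 and 1 CCAAT boxes and none of the CHR letters searched.

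The fold changes were also taken within libraries of like mitochondrial share. Within the 3 libraries of lowest share (replicates 1 and 2 of OE-NC, replicate 3 of OE-circSHPRH) OE-circSHPRH minus OE-NC in mean log2 CPM came to -0.39 for CCNA2, -0.15 for CCNB1, -0.34 for CCNB2, -0.34 for CCNE2 and 0.08 for CCND1. Within the 3 of highest share it was -0.06, -0.11, -0.10, -0.42 and 0.14 for the same genes in that order. The direction of CCNB1, CCNB2, CCNE2 and CCND1 had to be the same in both sets, because their groups did not overlap. It therefore says nothing of the mitochondrial share. CCNA2, whose groups overlapped, was negative in both sets. The size for CCNA2 and CCNB2 was larger in the first, where the treated side is OE-circSHPRH replicate 3 alone. For CCND3 the values were -0.05 and 0.13, for CCNE1 0.02 and 0.10, and for CCND2 1.11 and -0.21. Each such difference has 1 library on one side and allows no test. Within OE-NC, the library of highest share (replicate 3) had 26.4 CPM of CCNA2 against 26.5 and 28.2. For CCNB2 it had 30.4 CPM against 33.2 and 29.6. Within OE-circSHPRH, the library of lowest share (replicate 3) was the lowest in both genes. It had 20.8 CPM against 27.4 and 23.4 for CCNA2, and 24.8 CPM against 28.0 and 28.7 for CCNB2. These differences within groups were not tested.

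The CDKs that the cyclins activate did not pass either, 0 of 4. CDK4, the partner of cyclin D1, stood at 220, 215 and 206 CPM in OE-NC and 195, 203 and 200 CPM in OE-circSHPRH, or -0.10 as log2 fold change (SE 0.043, 95% interval -0.19 to -0.01, edgeR unadjusted p = 0.0272, adjusted p = 0.396). The groups of CDK4 and, barely, those of CDK1 did not overlap. These were 2 of 4, both lower, where 7.57% of all genes lay lower without overlap. CDK6 had a log2 fold change of 0.07, CDK2 of 0.05 and CDK1 of -0.11 (adjusted p of 0.576, 0.857 and 0.608). On the FPKM scale CCND1 and CDK4 were at nearly equal levels: the ratio of CCND1 to CDK4 was 0.935, 0.987 and 0.979 in OE-NC and 1.13, 1.11 and 1.11 in OE-circSHPRH, described here without a test. The 3 genes of the CDK-activating kinase, among them the kinase CDK7 (0.06) and its cyclin CCNH (-0.08), did not pass.

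Among the CDK inhibitors CDKN1A alone passed, higher in OE-circSHPRH, 1 of 6 tested, where 0.128% of all genes were called higher. It went from 769, 770 and 764 CPM in OE-NC to 997, 1026 and 1074 CPM in OE-circSHPRH (log2 fold change 0.43, SE 0.040, edgeR adjusted p = 1.44e-05) and passed with each of the 6 libraries left out. CDKN1A mRNA already exceeded the summed FPKM of the 8 cyclins in OE-NC, by a ratio of 2.36, 2.37 and 2.44 in replicates 1 to 3, and the ratio was 3.06, 3.09 and 3.36 in OE-circSHPRH. Against CCND1 alone the ratio was 3.76 to 3.93 in OE-NC and 4.70 to 5.03 in OE-circSHPRH. These ratios of mRNA levels are a description and say nothing of protein. At 49.5 FPKM in OE-NC, the p27 gene CDKN1B had a log2 fold change of 0.07 (edgeR adjusted p = 0.612). It stood at 140, 139 and 142 CPM in OE-NC and 147, 146 and 150 CPM in OE-circSHPRH. The groups of CDKN1B did not overlap, where 7.99% of all genes lay higher without overlap. CDKN2C, which encodes the CDK4 and CDK6 inhibitor p18, had -0.0049 at 10.3 FPKM, and CDKN2D, which encodes p19, 0.20 (SE 0.20).

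The kinases and phosphatases that switch CDK1 and CDK2 on and off were all 5 lower in mean, and none passed. Their median log2 fold change was -0.15, beside 0.0018 over all genes tested, of which 49.2% were negative. CDC25B, a phosphatase that activates CDK1, had -0.12 (SE 0.050, adjusted p = 0.378), CDC25A, which acts at the entry into S phase, -0.21 (SE 0.088; -0.12 without OE-circSHPRH replicate 1), and PKMYT1, a kinase that holds CDK1 inactive, -0.27 (SE 0.10, adjusted p = 0.333).

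Of the factors that transcribe cyclin genes, MYBL2 fell, 1 of the 10 genes of the MuvB, B-MYB, FOXM1 and NF-Y list, where 0.0608% of all genes were called lower. MYBL2, which encodes B-MYB, went from 93.2, 94.3 and 98.2 CPM to 76.8, 80.6 and 77.5 CPM (log2 fold change -0.28, SE 0.050, edgeR adjusted p = 0.0213). Leaving out replicate 1 or 3 of OE-circSHPRH kept that call (2 of 6 such fits); without replicates 1, 2 or 3 of OE-NC or replicate 2 of OE-circSHPRH its adjusted p was 0.137, 0.0946, 0.104 and 0.0934. For FOXM1, which activates CCNB1 and other mitotic genes, the log2 difference came to -0.28 (SE 0.061, adjusted p = 0.0788). RBBP4, a MuvB subunit found in many chromatin complexes, had 0.09 and the NF-Y subunit gene NFYA 0.03. The list median was -0.07, with 8 of 10 negative, where 49.2% of all genes tested were negative. None of 13 RB and E2F genes passed; their median was -0.03. E2F1, an activator of CCNE1, CCNE2 and CCNA2, had -0.38 (SE 0.080, adjusted p = 0.0570) and E2F8, a repressor within the family, -0.58 (SE 0.18, adjusted p = 0.228). E2F3, an activator (0.09), and E2F4, known as a partner in repression (0.04), were the most abundant E2F genes, at 21.5 and 44.9 FPKM in OE-NC.

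The genes that destroy cyclins did not pass, 0 of 13 for the ligases of D and E type cyclins and 0 of 16 for the anaphase-promoting complex (APC/C), which marks cyclins A2 and B1 for the proteasome. The medians were 0.01 and -0.01. For FBXW7, which recognises cyclin E, the log2 fold change was 0.17 (SE 0.068, adjusted p = 0.380), for CKS1B, a cofactor of SKP2, -0.19 (SE 0.068, adjusted p = 0.306), and for the scaffold CUL1 0.02. CDC20, the mitotic activator of the APC/C, stood at 60.9, 65.5 and 67.7 CPM in OE-NC and 49.0, 52.8 and 55.8 CPM in OE-circSHPRH (log2 fold change -0.30, SE 0.063, adjusted p = 0.0550). Without OE-circSHPRH replicate 3, edgeR called CDC20 (adjusted p = 0.00344), E2F1 (0.00451), FOXM1 (0.0369), CKS1B (0.0106) and UBE2S (0.0434), all lower. Dropping any other single library instead left each of these genes uncalled, so each passed in 1 of 6 such fits. The largest edgeR adjusted p was then 0.342 for CDC20 and E2F1, 0.317 for FOXM1, 0.698 for CKS1B and 0.804 for UBE2S. CDC20 and FOXM1 also passed with DESeq2 (adjusted p = 0.0156 and 0.0432), and CDC20, FOXM1 and E2F1 in edgeR without the filter on low counts (0.00150, 0.0162 and 0.00496). With the mitochondrial share as covariate CDC20, E2F1, E2F8 and FOXM1 passed, lower, and CCNG1 passed, higher. The fits in which these genes passed also called more genes over the whole table. The main fit called 21 higher and 10 lower, DESeq2 49 and 28, and edgeR without the filter 116 and 78. Counts without OE-circSHPRH replicate 3 and with the mitochondrial share are given in the last section. The APC/C subunit ANAPC4 had 0.25 (SE 0.070, adjusted p = 0.168) and the ubiquitin-conjugating enzyme UBE2S -0.13, or -0.074 without OE-circSHPRH replicate 1.

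**Figure D4:**
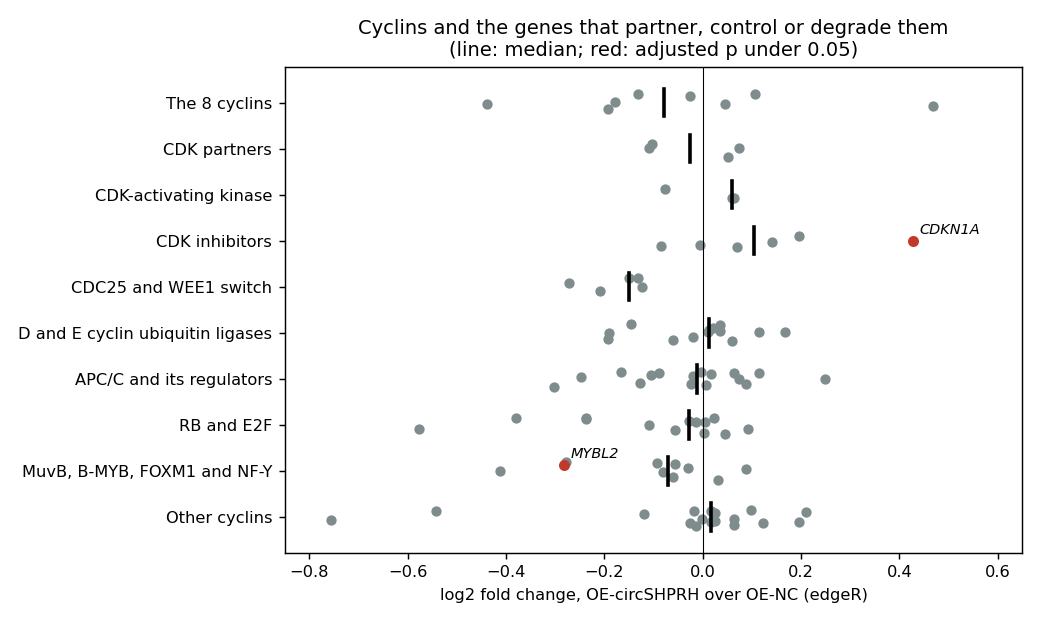
Log2 fold change (edgeR) of every tested gene in each list, with a black line at the list median; red marks an adjusted p under 0.05. CDKN1A at 0.43 and MYBL2 at -0.28 are the genes called, and no cyclin is.

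Cyclins outside the 8, most of which act in transcription or other processes, did not pass either, 0 of 17 tested, with a median of 0.02. CCNG1, a p53 target, stood at 89.5, 87.7 and 88.9 CPM in OE-NC and 98.0, 97.0 and 109 CPM in OE-circSHPRH (log2 fold change 0.19, SE 0.054, adjusted p = 0.166). CCNG2, an atypical cyclin linked to cell cycle arrest, went with it in direction, at 59.2, 63.1 and 67.1 CPM against 74.2, 72.9 and 72.2 CPM (0.21, SE 0.057, adjusted p = 0.155). CCNI (0.02) and the splicing-linked CCNL2 (0.06) were the most abundant of them, at 78.6 and 73.9 FPKM in OE-NC, above CCND1.

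Of the 8 cyclins CCND1 alone was abundant enough (mean log2 CPM of at least 5) for its pattern over the 6 libraries to be set beside those of 6786 other genes. The nearest were RBBP4 and FBXO9, an F-box gene, with mean absolute differences of 0.013 and 0.013 on the centred log2 CPM scale, against a median of 0.073 over all these genes. Their log2 fold changes were 0.09 and 0.09.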

How the data were processed

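Per the labels, total RNA was taken with TRIzol and was sequenced as libraries from a SMARTER mRNA-Seq kit. The authors deposited 1 table with raw counts per gene, counts divided by a size factor per library (a normalized signal) and FPKM. It also holds the authors' log2 fold change and the authors' p-value and adjusted p-value. The deposited FPKM were a constant times count over gene length within each library. Neither the aligner nor the counting tool, its strand setting or the authors' test is given in the sources used here. The submitters' processing notes name GRCh37, but the deposited start and end of all 28752 genes equal those of GENCODE release 29 on GRCh38, which is used here.

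The main test was edgeR 4.0.16 on the raw counts: filterByExpr (minimum count 10, minimum total 15), which kept 16458 genes with 99.8% of the counts, TMM factors, glmQLFit and glmQLFTest with a group term alone. Tests were two-sided, adjusted by Benjamini-Hochberg and called at 0.05. Standard errors are the absolute log2 fold change over the square root of F, and 95% intervals use the t quantile of the same fit. Mean and SD of CPM are TMM-scaled. One count equals 0.0568 to 0.0639 CPM, and the biological coefficient of variation was 5.36%. The code was tested on simulated counts. Alternatives used limma 3.58.1 and DESeq2 1.42.0. The members and the 9 gene lists were chosen with earlier results of these data known. Genes named are the 8 cyclins, every list gene called, up to 2 per list with the highest FPKM in OE-NC and up to 2 with the smallest adjusted p, the CDKs, CDKN1A, SHPRH and the nearest profiles; overlapping genes are named for their position. Promoter sequences are RefSeq's (GRCh38.p14). CDH1, KRT5, PTPRC and HBB of the marker lists matched no gene symbol of the deposited table, so they have no values here.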

Additional observations from a re-analysis of the deposited data

How the results depend on the processing

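None of the 8 cyclins was called in any other fit except CCND1 with the mitochondrial share as covariate (1 of 8 called, adjusted p = 0.0357). CCND1, CCNE2, CCNA2, CCNB1 and CCNB2 had the same direction in all of these fits. With the mitochondrial covariate CCNE1 turned to 0.082, CDKN2C to 0.072, CUL1 to -0.014, NFYA to -0.011 and CCNI to -0.022. With 1 library left out, log2 fold changes ran from -0.12 to 0.075 for CCNE1, from -0.060 to 0.11 for CCND3, from -0.023 to 0.67 for CCND2, from -0.29 to -0.09 for CCNA2, from -0.51 to -0.34 for CCNE2, and from 0.09 to 0.13 for CCND1. For the other named genes whose direction turned, they ran from -0.12 to 0.062 for CDKN2C, from -0.037 to 0.36 for CDKN2D, from -0.0080 to 0.053 for CUL1, from -0.013 to 0.063 for NFYA and from -0.0094 to 0.052 for CCNI. Some other named genes kept their direction but moved by over 1.5 times from the value of the main fit. These were CDC25A (-0.31 to -0.12), UBE2S (-0.19 to -0.074) and CCNH (-0.12 to -0.012). CDK2 (0.017 to 0.096), CDK6 (0.044 to 0.11) and CCNL2 (0.031 to 0.089) did so too. Smaller moves of further named genes are not listed here. The background of 21 genes higher and 10 lower became 116 and 78 without a filter on low counts, 49 and 28 with DESeq2, 212 and 125 with the mitochondrial covariate, and 3 and 1 with limma on log2(FPKM + 0.1) or log2(FPKM + 1). With 1 library left out it ran from 4 to 142 higher and from 1 to 169 lower, the highest without OE-circSHPRH replicate 3. The cause was not tested. The replicate numbers did not pair the libraries (correlations of same-numbered deviations -0.117, -0.034 and -0.484), and with the replicate block 4 genes were higher, 2 lower and 0 cyclins called; MYBL2 did not pass with it (adjusted p = 0.231) nor with limma on FPKM (0.163 and 0.177). Depth limits CCND2, at 10 to 25 counts, and CCNE2, at 37 to 66.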
